A study of Homo sapiens with 12 samples.

Results

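Human chromosome 19 is known for its many C2H2 zinc finger genes, most of which lie side by side in clusters of related genes. The genes described here are those with a numbered ZNF symbol whose first exon lies on chromosome 19 in the deposited count table, with pseudogenes left out. They number 247 of the 60707 genes used. A run of at least 5 of them with no more than 500 kb between neighbouring gene starts was called a cluster, which placed 233 of the 247 in 10 clusters, numbered here in their order along the chromosome, and left 14 outside.

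RNA was measured by sequencing in Raji cells, a human Burkitt lymphoma line, for a study built on an auxin-inducible degron of SMARCA4, a catalytic subunit of SWI/SNF chromatin remodellers. The groups were GFP-low cells with FX1, GFP-high cells with FX1, GFP-low cells with DMSO and GFP-high cells with DMSO, each with 3 libraries at 24 h. FX1 blocks BCL6, a repressor of transcription in germinal centre B cells, and DMSO is the solvent control. All 12 libraries carry the genotype label Smarca4+/+, and the labels do not say how the GFP gate relates to the amount of SMARCA4 protein, so groups are called by gate and treatment. Whether replicates were grown apart is not stated, so each p-value reflects the spread among these libraries alone, and that spread may be technical. In bulk RNA, fewer cells of a type and less RNA per cell cannot be told apart.

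Most proteins of this family pair an array of C2H2 fingers, which read DNA sequence, with a KRAB box, which recruits the scaffold protein TRIM28 (KAP1). TRIM28 brings the histone H3K9 methyltransferase SETDB1 and HP1 proteins, and the resulting heterochromatin silences transposable elements. Many of the genes arose by tandem duplication in primates and mammals, and individual proteins bind particular retrotransposon families.

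Gene counts per library lay between 20454028 and 42556661, and the dispersion shared by all genes corresponded to a coefficient of variation of 1.67%. Mitochondrial genes took 5.05% to 5.13% of counts in GFP-low FX1, 4.23% to 4.32% in GFP-high FX1, 4.72% to 4.84% in GFP-low DMSO and 7.84% to 7.91% in GFP-high DMSO. Levels are given as CPM, counts scaled to library size with TMM factors. SMARCA4 RNA was at 452 to 460.4 CPM in GFP-low FX1, 386 to 391 in GFP-high FX1, 392 to 401 in GFP-low DMSO and 376 to 384 in GFP-high DMSO, and since a degron acts on protein, RNA does not check it. BCL6 RNA was at 211 to 226 CPM in GFP-low FX1, 196 to 203 in GFP-high FX1, 329 to 345 in GFP-low DMSO and 399 to 401 in GFP-high DMSO. All 7 B-cell markers were detected, with summed levels of 1870 to 1875 CPM in GFP-low FX1, 2306 to 2326 in GFP-high FX1, 2458 to 2476 in GFP-low DMSO and 2750 to 2769 in GFP-high DMSO. Summed T and NK cell markers (4 of 6 genes past the level filter) stayed at 2.52 to 7.54 CPM, myeloid markers (3 of 5) at 2.00 to 6.41 CPM, and epithelial and stromal markers (2 of 6, KRT18 at 0 throughout) at 8.79 to 17.8 CPM. These sums and the mitochondrial share moved with gate and treatment, and their part in the results below was not tested.

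Promoters of cluster 4 (chr19:19668796-24129968, hg38) are shown first, because 25 of its 28 tested genes fell with FX1 in each gate. Windows of 150 bases that end at the base before the transcription start were taken from the RefSeq promoter table (GRCh38.p14), for 4 genes of cluster 4 that fell with FX1 and for ZNF628 of cluster 9, which rose. Capitals mark TCCAATCAGG, the 10-base word held by most cluster 4 promoters, which contains the CCAAT box. CCAAT also occurs outside the capitals in each of the 4 cluster 4 windows, and in the ZNF628 window. The CCAAT box alone therefore does not set these windows apart. The 4 cluster 4 genes and ZNF628 all lie on the plus strand, at chr19:23116875-23117024, chr19:20923101-20923250, chr19:21082053-21082202, chr19:20167064-20167213 and chr19:55476467-55476616 in the order printed.
ZNF730: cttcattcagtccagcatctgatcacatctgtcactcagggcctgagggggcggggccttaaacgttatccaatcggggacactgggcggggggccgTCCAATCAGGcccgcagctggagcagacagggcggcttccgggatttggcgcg
ZNF85: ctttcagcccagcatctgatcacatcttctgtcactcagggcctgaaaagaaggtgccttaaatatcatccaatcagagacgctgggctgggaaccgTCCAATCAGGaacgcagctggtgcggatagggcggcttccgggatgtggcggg
ZNF714: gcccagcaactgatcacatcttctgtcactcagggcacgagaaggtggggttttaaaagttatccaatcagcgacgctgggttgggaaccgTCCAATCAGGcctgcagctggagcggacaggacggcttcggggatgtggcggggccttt
ZNF486: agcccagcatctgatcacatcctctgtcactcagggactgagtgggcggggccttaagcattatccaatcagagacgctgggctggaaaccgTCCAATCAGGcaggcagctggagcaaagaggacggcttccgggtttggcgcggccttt
ZNF628: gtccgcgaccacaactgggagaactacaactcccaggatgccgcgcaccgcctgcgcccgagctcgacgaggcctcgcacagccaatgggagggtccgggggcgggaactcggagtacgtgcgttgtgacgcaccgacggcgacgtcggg

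Of the 29 cluster 4 genes with an entry in that table, 26 (89.7%) held TCCAATCAGG on either strand in the window from 250 bases before to 50 after the start, in all 26 on the gene's own strand and at a median of 58 bases upstream. Of all 35116 promoters in the table, 122 (0.347%) held it. Outside cluster 4, 17 of 187 member promoters did, and all 17 belong to clusters 1 and 3. The 10-base word was chosen from the cluster 4 sequences themselves, so its share there is a description of how alike these promoters are. Median GC content was 56.0% for cluster 4 promoters and 68.2% for cluster 9 promoters, beside 58.7% for all. The BCL6-type motif TTCCNNGAA, the same on both strands, was present in 11 of 216 member promoters (5.09%) and in 2.86% of all promoters, and in 0 of 29 in cluster 4. The antioxidant response element core TGACNNNGC, searched on both strands, was present in 31 member promoters (14.4%) and in 13.3% of all. None of these words contains another, and a match or its lack says nothing about binding.

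The members were mostly expressed at low levels. Of the 247, 179 passed the low-count filter and were tested, and 68 did not. The lowest mean among those that passed was 0.242 CPM (ZNF382) and the highest among those that did not was 0.156 CPM (ZNF491). All counts of ZNF genes below refer to the 179 tested members. The 68 others included 17 with 0 counts in all libraries together, which allows up to 0.00838 CPM each when 3 counts are taken as the limit (counting error only). Cluster 7 (chr19:43525497-44500524) held 16 untested members of its 23, the highest of them at 0.0419 CPM, and 7 of these 16 were at 0 throughout. Cluster 4 held 9 untested members of its 37, among them ZNF208, ZNF257, ZNF676 and ZNF99, the highest of the 9 being ZNF208 at 0.0401 CPM.

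Per length, the tested members had a median of 2.58 RPKM over the 12 libraries, below the 4.08 RPKM of ZNF genes on other chromosomes, the 6.09 RPKM of other protein-coding genes of chromosome 19 and the 6.41 RPKM of all tested protein-coding genes. Only 21 of the 179 exceeded that last value. The highest were ZNF146 at 40.6 RPKM, a protein made almost wholly of fingers, ZNF460 at 29.3, ZNF121 at 22.7, ZNF581 at 18.2, ZNF317 at 14.4, ZNF587 at 13.9, ZNF296 at 13.2 and ZNF428 at 11.4. Of these 8, a KRAB pattern was found in ZNF460, ZNF317 and ZNF587 and not in the other 5. ZNF581 shares exon bases on its own strand with ZNF580 and CCDC106, ZNF296 and ZNF587 each share some with a gene on their own strand, and ZNF146, ZNF460, ZNF587 and ZNF428 share some with a gene on the other strand, so their counts may include reads of a neighbour where strand was not used.

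**Figure D1:**
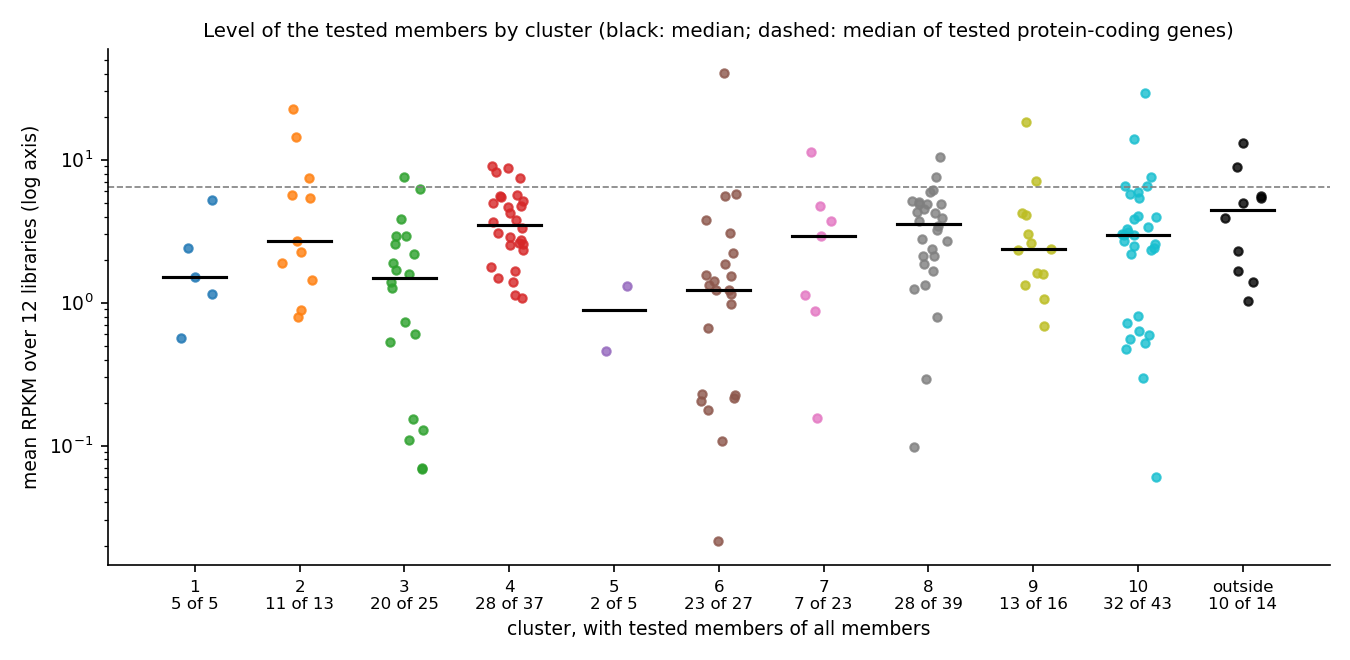
Mean level per gene over the 12 libraries (RPKM, log axis) for the tested members of each cluster, with black lines at the medians and a dashed line at the median of tested protein-coding genes, 6.41 RPKM. Cluster medians lie between 0.885 RPKM (cluster 5, 2 genes tested) and 3.57 RPKM (cluster 8), and all lie under the dashed line.

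The members' summed level was 3534 to 3557 CPM in GFP-low FX1, 3680 to 3714 in GFP-high FX1, 3622 to 3684 in GFP-low DMSO and 4045 to 4060 in GFP-high DMSO. On this TMM scale FX1 libraries lay below DMSO libraries of the same gate, and GFP-low libraries below GFP-high libraries of the same treatment, without overlap. As a plain share of all gene counts the members took 0.376% to 0.378% in GFP-low FX1, 0.365% to 0.368% in GFP-high FX1, 0.370% to 0.375% in GFP-low DMSO and 0.375% to 0.376% in GFP-high DMSO. With that scaling GFP-low FX1 lay above both GFP-low DMSO and GFP-high FX1, so the order of the sum in those pairs turns with the scaling, while GFP-high FX1 lay below GFP-high DMSO on both scales.

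The first comparison asks which members changed with FX1 in each gate. Most cluster 4 members fell in both gates, cluster 9 members mostly rose, and members of clusters 3 and 8 mostly fell in GFP-high cells. Over all tested members in GFP-low cells, 57 (31.8%) were higher and 59 (33%) lower with FX1 at an adjusted p under 0.05 (edgeR quasi-likelihood test, Benjamini-Hochberg over 17859 genes), beside 33.7% higher and 34.3% lower of all genes tested. In GFP-high cells 41 (22.9%) were higher and 77 (43%) lower, beside 33.8% and 34.6% of all. The median log2 change of tested members was -0.00 in GFP-low and -0.14 in GFP-high cells, beside -0.01 and -0.01 over all genes. So in GFP-low cells the members' shares stood near the background, and in GFP-high cells fewer were higher and more were lower than among all genes. With a trend on transcript GC content and length removed, the split in GFP-low cells became 75 higher and 42 lower, and in GFP-high cells 46 and 68. For the 167 tested ZNF genes on other chromosomes with a promoter entry, that fit gave 74 higher and 49 lower in GFP-low cells. In GFP-high cells it gave 58 higher and 62 lower of them. Shares over all genes in that fit are not given here, so the members' new splits are not set against a background.

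A change beyond 1.5-fold (glmTreat on the same fit) was called for 9 higher and 13 lower members in GFP-low cells, beside 9.18% higher and 11% lower of all genes, and for 6 higher and 20 lower members in GFP-high cells, beside 8.14% and 12.4%. The gates share no library in this comparison. Of the 116 members called in GFP-low and the 118 called in GFP-high cells, 91 were called in both (78.4% and 77.1% of each list): 37 higher in both, 52 lower in both and 2 higher in GFP-low and lower in GFP-high. Across the 179 members the log2 changes in the gates correlated with Spearman 0.85, as a description over genes, which are not independent replicates. Over all 17859 genes tested, the calls shared by both gates made up 82.4% of the GFP-low and 81.8% of the GFP-high list. The share of calls in common was thus no larger among members. Spearman over all genes was 0.81, under the 0.85 of members. Of the shared calls, 94.2% went the same way over all genes and 97.8% among members.

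**Figure D2:**
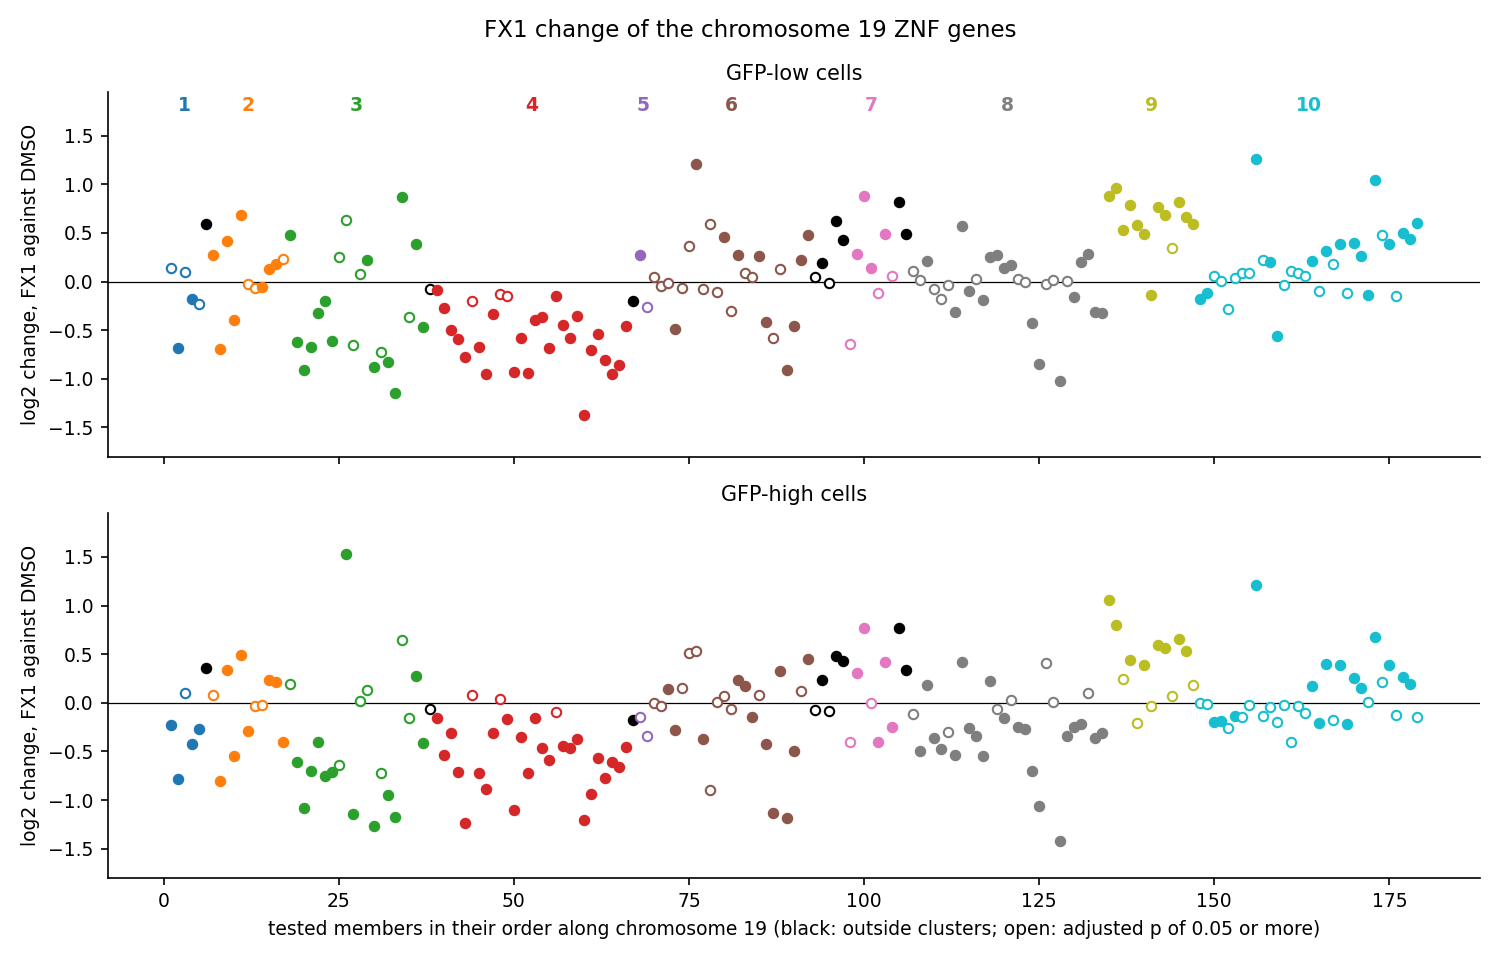
Log2 change with FX1 against DMSO (y axis) of the 179 tested members in their order along chromosome 19 (x axis), in GFP-low cells (top) and GFP-high cells (bottom). Colours and the numbers at the top mark the clusters, black marks members outside them, and open circles had an adjusted p of 0.05 or more. Cluster 4 lies almost wholly below 0 and cluster 9 mostly above it in both gates.

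Cluster 4 is the primate-expanded array near the centromere, with 35 of 37 genes holding a KRAB pattern. Of its 28 tested genes, 25 fell and 0 rose with FX1 in GFP-low cells, and 25 fell and 0 rose in GFP-high cells. The median log2 change was -0.56 in GFP-low and -0.50 in GFP-high cells. With the GC and length trend removed, 18 fell and 2 rose in GFP-low cells, and 24 fell and 0 rose in GFP-high cells. The median was then smaller in size, at -0.27 in GFP-low and -0.42 in GFP-high cells. Changes of single genes below are from the fit with the trend left in, unless stated. With FX1, the tested cluster 4 genes that did not pass were ZNF682 (-0.20), ZNF626 (-0.13) and ZNF66 (-0.14) in GFP-low cells and ZNF682 (0.08), ZNF626 (0.04) and ZNF493 (-0.10) in GFP-high cells, as log2 changes; they are named for not passing, after their values were seen. With the trend removed, ZNF66 (0.20) and ZNF493 (0.21) were the 2 that rose in GFP-low cells.

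ZNF730 fell the most in the cluster in GFP-low cells. Its libraries read 4.26, 3.30 and 3.08 CPM in GFP-low FX1, against 9.56, 9.13 and 9.90 in GFP-low DMSO. They read 6.28, 5.94 and 6.28 CPM in GFP-high FX1, against 14.1, 13.8 and 14.8 in GFP-high DMSO. All 3 FX1 libraries were under all 3 DMSO libraries in each gate, and the 4 groups did not overlap at all. The log2 change was -1.37 ± 0.11 (SE) in GFP-low cells, adjusted p = 6.27e-28, and -1.20 ± 0.09 in GFP-high cells, adjusted p = 8.24e-29 (edgeR, 3 libraries a group). Separation of the treatments was required of genes named for a large FX1 change, here and below. Of the 179 tested members, 125 showed it in each gate. The matching share over all genes is not given here, so this count says nothing particular about the members.

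ZNF85 read 7.24, 6.66 and 7.07 CPM in GFP-low FX1, against 14.3, 13.4 and 12.4 in GFP-low DMSO, and 8.24, 9.02 and 9.92 in GFP-high FX1, against 20.9, 19.4 and 17.9 in GFP-high DMSO. FX1 libraries were again low without overlap, with changes of -0.93 ± 0.09 and -1.10 ± 0.08 on the log2 scale in GFP-low and GFP-high cells (adjusted p = 6.97e-22 and 8.74e-33, edgeR). ZNF93, which represses L1 retrotransposons, read 5.64, 5.48 and 5.33 CPM in GFP-low FX1, against 10.7, 9.07 and 8.57 in GFP-low DMSO. In GFP-high cells it read 6.17, 7.17 and 6.34 CPM with FX1, against 16.9, 14.6 and 15 with DMSO. Its change was -0.78 ± 0.10 in GFP-low and -1.24 ± 0.09 in GFP-high cells on the log2 scale, and the difference between gates, 0.46 ± 0.13, passed the test of the difference (adjusted p = 0.0035, edgeR).

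ZNF714, ZNF486 and ZNF681, further genes of the cluster, were among the largest falls in GFP-low cells. ZNF714 read 28.2 to 30.5 CPM in GFP-low FX1, against 53.9 to 57.7 in GFP-low DMSO, a log2 change of -0.94 ± 0.04, and changed by -0.72 ± 0.04 in GFP-high cells. ZNF486 read 12.8 to 14.3 CPM in GFP-low FX1, against 25.9 to 27.2 in GFP-low DMSO, a change of -0.95 ± 0.06 in GFP-low cells and of -0.89 ± 0.06 in GFP-high cells. ZNF681 read 6.33 to 6.84 CPM in GFP-low FX1, against 12 to 13 in GFP-low DMSO, a change of -0.95 ± 0.09 in GFP-low and -0.61 ± 0.08 in GFP-high cells. None of the 3 overlapped between treatments in either gate. The highest gene of the cluster per length, ZNF101 at 8.97 RPKM, lies at its edge and moved least among those that passed in GFP-low cells, by -0.09 ± 0.04 (adjusted p = 0.028, edgeR), with GFP-low FX1 at 55 to 59 CPM and GFP-low DMSO at 57.1 to 64.2 overlapping.

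**Figure D3:**
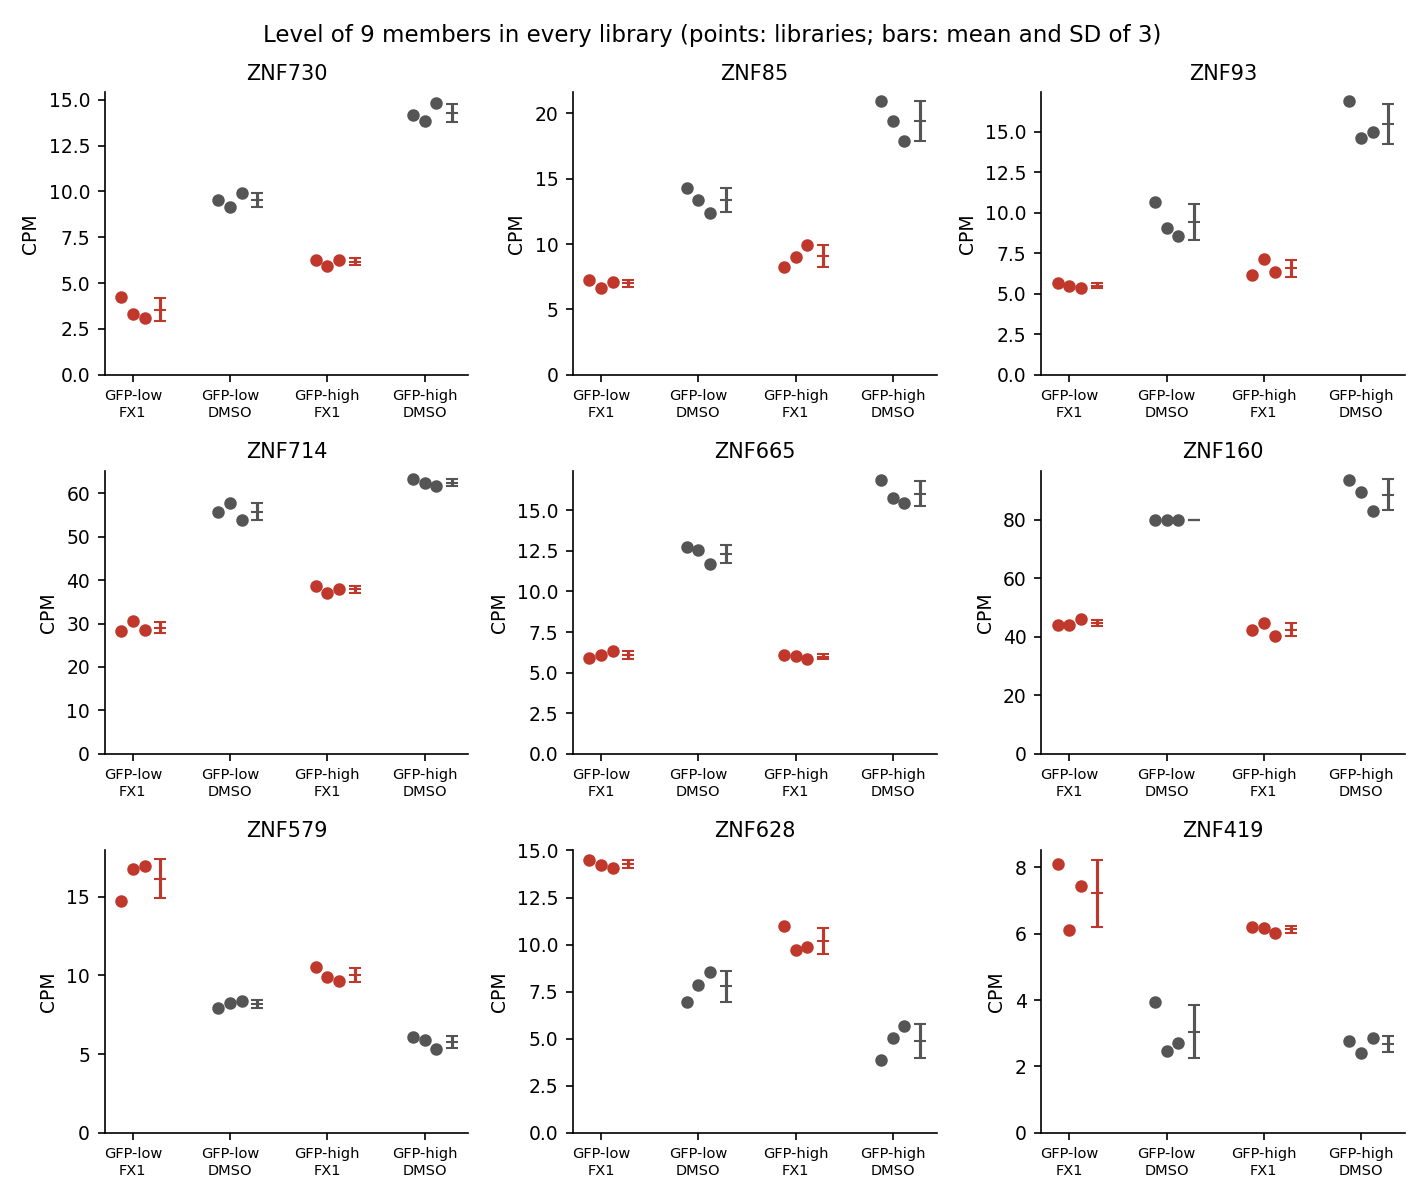
CPM (y axis, from 0) of 9 members in each of the 12 libraries, with the mean and SD of each group of 3 beside the points; red marks FX1 and grey DMSO. The first 6 genes are lower in FX1 and the last row (ZNF579, ZNF628 and ZNF419) higher, without overlap between the treatments in either gate. Each was named for an FX1 contrast in which lack of overlap was required.

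Cluster 9 (chr19:55476617-56671783) differs in make-up: 5 of its 16 genes hold a KRAB pattern, and the median transcript GC content of its tested genes was 61.7%, against 42.1% over all tested members. Of 13 tested genes, 11 rose and 1 fell with FX1 in GFP-low cells, and 8 rose and 0 fell in GFP-high cells, with median log2 changes of 0.67 and 0.44. With the GC and length trend removed, 10 rose and 1 fell in GFP-low and 7 rose and 2 fell in GFP-high cells, with medians of 0.29 and 0.24. The single fall was ZNF581 in GFP-low cells, -0.14 ± 0.05 on the log2 scale, in a gene that shares exon bases with ZNF580 and CCDC106. The bounds of cluster 9 depend on the gap allowed: at 1 Mb it joined cluster 10, and the joint set had 23 higher and 5 lower of 45 tested genes in GFP-low and 18 higher and 5 lower in GFP-high cells.

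ZNF579 read 14.7, 16.8 and 16.9 CPM in GFP-low FX1, against 7.94, 8.25 and 8.41 in GFP-low DMSO. It read 10.5, 9.91 and 9.66 CPM in GFP-high FX1, against 6.07, 5.88 and 5.35 in GFP-high DMSO. All FX1 libraries were above all DMSO libraries of their gate, by 0.96 ± 0.08 in GFP-low and 0.80 ± 0.10 in GFP-high cells on the log2 scale (adjusted p = 2.49e-24 and 2.43e-14, edgeR).

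ZNF628 read 14.5, 14.2 and 14.1 CPM in GFP-low FX1, against 6.93, 7.83 and 8.57 in GFP-low DMSO, and 11, 9.73 and 9.86 in GFP-high FX1, against 3.88, 5.04 and 5.69 in GFP-high DMSO. Here too the treatments did not overlap, and the log2 change was 0.88 ± 0.09 in GFP-low and 1.06 ± 0.10 in GFP-high cells. These became 0.29 and 0.72 with the trend removed. ZNF865 (0.79 ± 0.07 in GFP-low and 0.44 ± 0.07 in GFP-high cells), ZNF787 (0.77 ± 0.06 and 0.59 ± 0.06) and the SCAN-domain gene ZNF444 (0.68 ± 0.06 and 0.56 ± 0.07) rose in both gates. With the trend removed, ZNF865 came to 0.19 and 0.10 and ZNF787 to 0.27 and 0.31, and the call of ZNF865 in GFP-high cells was lost. ZNF583, a KRAB gene of the same cluster with a transcript GC content of 38.3%, rose by 0.82 ± 0.10 in GFP-low and 0.66 ± 0.09 in GFP-high cells, and by 1.05 and 0.74 with the trend removed.

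**Figure D4:**
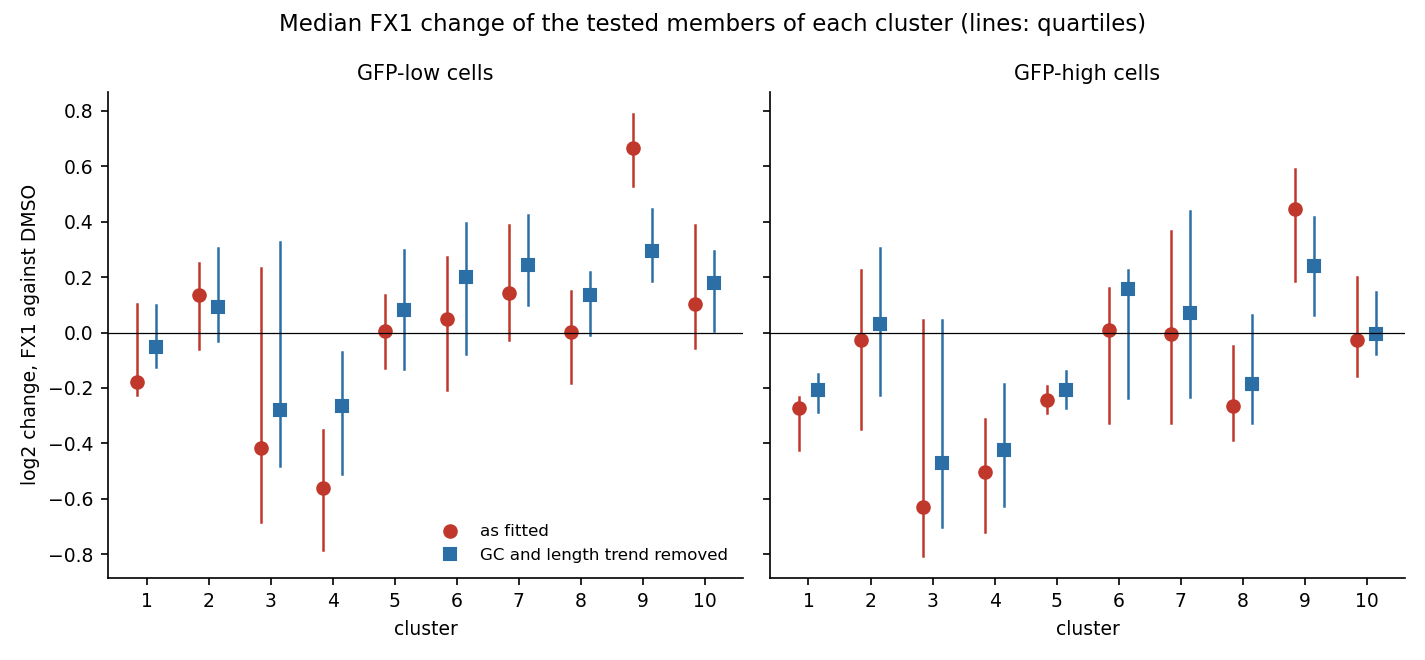
Median log2 change with FX1 of the tested members of each cluster (points) with quartiles (lines), as fitted (red circles) and after taking out the GC and length trend (blue squares), in GFP-low cells (left) and GFP-high cells (right). Cluster 4 stays below 0 and cluster 9 above it in both fits, at a smaller size with the trend removed.

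Cluster 3 (chr19:11483427-12640098) also held large falls. Of its 20 tested genes, 10 fell and 4 rose in GFP-low cells, and 11 fell and 2 rose in GFP-high cells, with median log2 changes of -0.41 and -0.63. Removal of the GC and length trend left 9 falls and 4 rises in GFP-low cells, and 11 falls and 4 rises in GFP-high cells. ZNF563 read 1.98 to 2.94 CPM in GFP-low FX1, against 4.12 to 4.98 in GFP-low DMSO, and 2.09 to 2.25 in GFP-high FX1, against 4.64 to 6.37 in GFP-high DMSO. Its change was -0.87 ± 0.15 and -1.27 ± 0.15 on the log2 scale (adjusted p = 9.75e-08 and 3.88e-14, edgeR), with no overlap between treatments. ZNF823 changed by -0.91 ± 0.13 in GFP-low and -1.09 ± 0.13 in GFP-high cells, and ZNF799 by -0.83 ± 0.15 and -0.95 ± 0.15. ZNF700, the highest of the cluster at 7.56 RPKM, read 18.4 to 21.3 CPM in GFP-low FX1, against 30.2 to 31.4 in GFP-low DMSO, a change of -0.61 ± 0.06, and changed by -0.71 ± 0.06 in GFP-high cells. Several cluster 3 genes share much sequence with a neighbour. There, 5 tested genes had at least 50% of their 50-base exon windows in another gene, so their reads may be split. None of these 5 is named above: the share was 1.48% for ZNF563, 1.52% for ZNF823, 25.1% for ZNF799 and 14.4% for ZNF700.

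Cluster 8 (chr19:51571283-53580269) held the largest fall in GFP-high cells. ZNF665 read 5.88, 6.06 and 6.34 CPM in GFP-low FX1, against 12.7, 12.5 and 11.7 in GFP-low DMSO. It read 6.12, 6.01 and 5.84 CPM in GFP-high FX1, against 16.9, 15.8 and 15.4 in GFP-high DMSO. FX1 libraries lay at like levels in both gates, while GFP-high DMSO lay above GFP-low DMSO, and the log2 change was -1.03 ± 0.09 in GFP-low and -1.42 ± 0.09 in GFP-high cells.

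ZNF160, at 7.51 RPKM, read 43.9, 44.2 and 46 CPM in GFP-low FX1, against 80, 80.1 and 80 in GFP-low DMSO, and 42.3, 44.7 and 40.2 in GFP-high FX1, against 93.5, 89.5 and 82.9 in GFP-high DMSO. The FX1 libraries of both gates together lay below all DMSO libraries, with log2 changes of -0.85 ± 0.04 in GFP-low and -1.07 ± 0.04 in GFP-high cells (adjusted p = 2.12e-62 and 2.06e-80, edgeR). Over the cluster, 9 of 28 tested genes fell and 8 rose in GFP-low cells, and 18 fell and 3 rose in GFP-high cells. Removal of the GC and length trend gave 6 falls and 13 rises in GFP-low cells, so the split there turned round. In GFP-high cells it gave 16 falls and 4 rises. ZNF808, a KRAB gene whose loss causes pancreatic agenesis in people, was the highest of the cluster at 10.4 RPKM and changed by -0.09 ± 0.04 in GFP-low and -0.26 ± 0.04 in GFP-high cells. Its change in GFP-low cells turned to 0.09 with the trend removed.

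Elsewhere the calls were mixed. Cluster 10 (chr19:57191500-58481230) had 12 genes higher and 4 lower of 32 tested in GFP-low cells, and 10 higher and 5 lower in GFP-high cells. After trend removal cluster 10 had 15 higher and 3 lower in GFP-low cells, and 8 higher and 1 lower in GFP-high cells. ZNF419 of this cluster read 8.10, 6.12 and 7.44 CPM in GFP-low FX1, against 3.95, 2.47 and 2.71 in GFP-low DMSO, and 6.20, 6.18 and 6.01 in GFP-high FX1, against 2.77, 2.41 and 2.85 in GFP-high DMSO. Every FX1 library was above every DMSO library, by 1.26 ± 0.13 and 1.21 ± 0.14 on the log2 scale in GFP-low and GFP-high cells. ZNF587 rose by 0.39 ± 0.03 and 0.39 ± 0.03, and ZNF460 changed by -0.12 ± 0.03 and -0.02 ± 0.03, the last not past the test (adjusted p = 0.58, edgeR) and at 0.09 with the trend removed.

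Cluster 6 (chr19:36182276-37817300) had 6 higher and 4 lower of 23 in GFP-low cells, or 11 and 2 with the trend removed. In GFP-high cells it had 5 higher and 7 lower, or 10 and 7 with the trend removed, so that split turned round. Its highest gene, ZNF146, read 147 to 149.7 CPM in GFP-low FX1 and 149.6 to 154 in GFP-low DMSO, and did not pass in either gate (-0.04 ± 0.02 in GFP-low, -0.03 ± 0.02 in GFP-high cells). It came to 0.14 and 0.10 and passed in both with the trend removed. Cluster 2 (chr19:8509678-9793180) had 5 higher and 3 lower of 11 in GFP-low cells and 4 and 4 in GFP-high cells. After trend removal cluster 2 had 6 higher and 1 lower in GFP-low cells and 4 and 3 in GFP-high cells. There ZNF317 rose by 0.42 ± 0.03 and 0.34 ± 0.03, and ZNF121 changed by -0.05 ± 0.02 and -0.03 ± 0.02, the last with adjusted p = 0.28 (edgeR). The change of ZNF121 in GFP-low cells turned to 0.09 with the trend removed.

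Clusters 1, 5 and 7 had 5, 2 and 7 tested genes. Cluster 1 had 0 higher and 2 lower genes in GFP-low and 0 higher and 4 lower in GFP-high cells, and ZNF57, its highest, changed by -0.18 ± 0.08 and -0.42 ± 0.08 on the log2 scale. Cluster 7 had 4 higher and 0 lower in GFP-low and 3 higher and 2 lower in GFP-high cells. After trend removal cluster 7 had 5 higher and 1 lower in GFP-low and 3 and 1 in GFP-high cells. Cluster 1 then had 0 higher and 1 lower in GFP-low and 0 and 2 in GFP-high cells. ZNF428 of cluster 7, with 1 finger by pattern, read 23.1 to 25 CPM in GFP-low FX1, against 12.8 to 13.6 in GFP-low DMSO, and rose by 0.88 ± 0.07 in GFP-low and 0.77 ± 0.07 in GFP-high cells. Outside the clusters, 6 of 10 tested genes rose and 1 fell in each gate, and ZNF296 read 30.3 to 33.7 CPM in GFP-low FX1, against 17.7 to 18.8 in GFP-low DMSO, a log2 change of 0.82 ± 0.06, with 0.77 ± 0.06 in GFP-high cells.

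The smallest calls in GFP-low cells did not all hold when 1 library was left out. ZNF101 lost its call without GFP-low DMSO replicate 2 or 3 or GFP-low FX1 replicate 2 or 3 (range of log2 change over the 12 omissions -0.13 to -0.06). ZNF57 lost it without any GFP-high FX1 library, GFP-low DMSO replicate 1 or 2, or GFP-low FX1 replicate 2 or 3 (-0.23 to -0.12). ZNF808 lost it without GFP-high FX1 replicate 1 or 2, GFP-low DMSO replicate 1 or 3, or GFP-low FX1 replicate 2 or 3 (-0.15 to -0.05). ZNF121 lost it without any GFP-high FX1 or GFP-low FX1 library or GFP-low DMSO replicate 3 (-0.10 to -0.03), and ZNF581 without GFP-low DMSO replicate 1 (-0.19 to -0.11). With the trend removed, the calls of ZNF101 (-0.04), ZNF57 (-0.05) and ZNF460 (-0.05) in GFP-low cells were lost as well. ZNF146 was called lower there when any GFP-high DMSO library was left out.

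The members' sequence features moved with these changes. Of 247 members, 197 held a KRAB A box pattern and 50 did not, and the median number of C2H2 fingers by pattern was 12, with a range of 0 to 36. Among tested members with the KRAB pattern, 34 were higher and 53 lower of 139 in GFP-low cells, against 23 higher and 6 lower of the 40 without it; in GFP-high cells 24 were higher and 71 lower, against 17 and 6. Transcript GC content correlated with the log2 change across the 179 members at Spearman 0.49 in GFP-low and 0.42 in GFP-high cells, where over all tested genes it was 0.34 and 0.15. Members at or under the median GC content of 42.1% had 17 higher and 42 lower of 90 in GFP-low cells, against 40 higher and 17 lower of 89 above it. These are descriptions over genes that share libraries and base composition. Tested genes with the KRAB pattern had a median GC content of 41.5%, against 57.8% in those without it, so the features cannot be told apart by these counts.

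**Figure D5:**
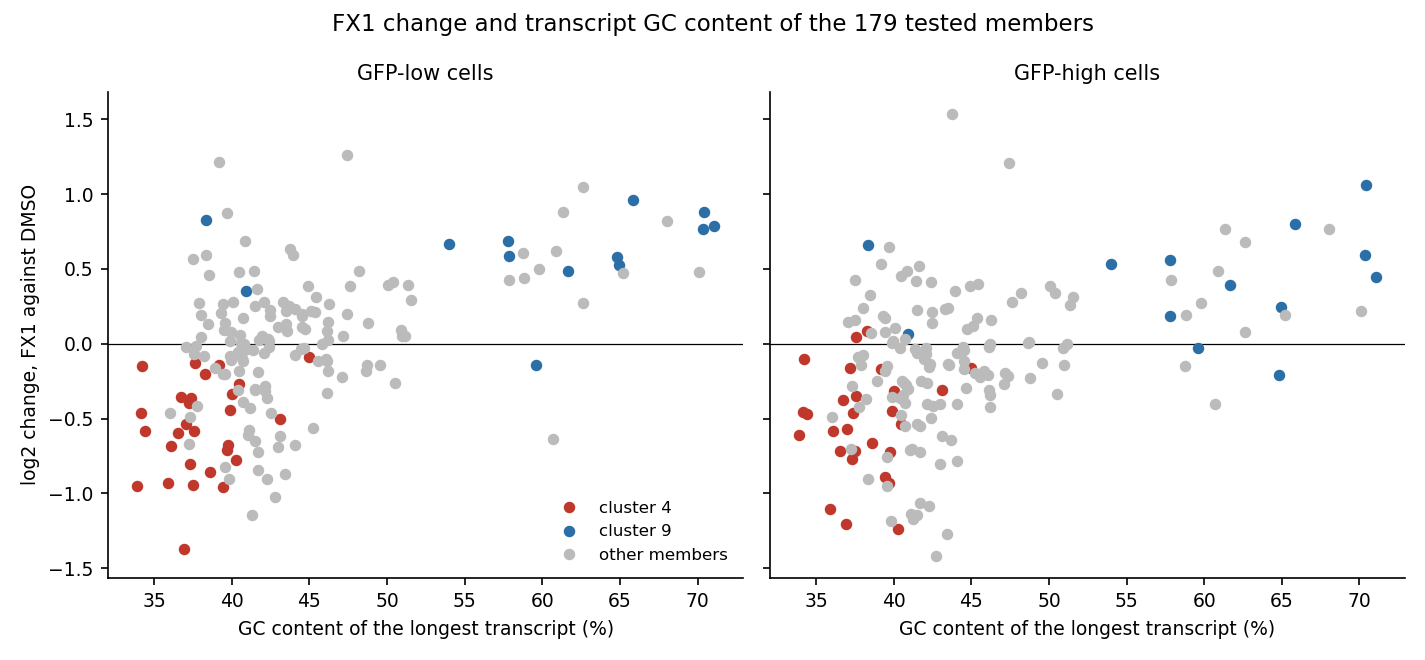
Log2 change with FX1 (y axis) against GC content of the longest annotated transcript in percent (x axis) for the 179 tested members, in GFP-low cells (left) and GFP-high cells (right), with cluster 4 in red, cluster 9 in blue and other members in grey. Cluster 4 genes gather at low GC content and low change, most cluster 9 genes at high GC content and positive change.

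The second comparison sets GFP-low against GFP-high cells under each treatment, and shares its libraries with the first. Changes were small: 0 members passed the 1.5-fold floor under DMSO in either direction (0.42% of all genes higher, 0.694% lower), and 1 member was higher and 0 lower under FX1 (2.03% and 2.05%). By the test without the floor, 19 members were higher and 68 lower under DMSO, beside 21.7% and 24.4% of all genes, and 42 were higher and 49 lower under FX1, beside 30.2% and 26.7%. The members' shares were 10.6% and 38% under DMSO and 23.5% and 27.4% under FX1. Removing the GC and length trend gave 19 higher and 52 lower under DMSO, and 51 higher and 21 lower under FX1, so that the split under FX1 turned round. Shares of all genes with the trend removed are not given for this comparison.

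Cluster 4 was lower in GFP-low cells under both treatments: 22 of 28 genes were lower and 0 higher under DMSO, and 22 lower and 1 higher under FX1. With the trend removed 16 were lower and 0 higher under DMSO, but 8 lower and 5 higher under FX1. ZNF93 (-0.71 ± 0.09 on the log2 scale), ZNF730 (-0.58 ± 0.09) and ZNF85 (-0.54 ± 0.07) of cluster 4 had 3 of the 5 largest named falls under DMSO. ZNF567 of cluster 6 (-0.61 ± 0.12) and ZNF616 of cluster 8 (-0.52 ± 0.09) had the others. Under FX1 the falls were ZNF730 (-0.75 ± 0.11), ZNF681 (-0.71 ± 0.09), ZNF737 (-0.50 ± 0.05) and ZNF254 (-0.49 ± 0.04) of cluster 4 and ZNF260 of cluster 6 (-0.50 ± 0.05). All these passed at an adjusted p under 0.05 (edgeR), and their GFP-low libraries lay below all GFP-high libraries of the same treatment. Both traits were required for naming. The gates lay apart for 95 of the 179 tested members under DMSO and for 96 under FX1, again without the matching share over all genes. For ZNF254 the fall under FX1 was lost with the trend removed (-0.06).

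Cluster 9 ran the other way, with 8 of 13 genes higher and 0 lower in GFP-low cells under DMSO and 11 higher and 0 lower under FX1. With the trend removed these counts were 4 higher and 2 lower, and 2 higher and 1 lower. Higher in GFP-low cells under DMSO were ZNF628 (0.66 ± 0.11), ZNF579 (0.50 ± 0.10), ZNF524 (0.49 ± 0.17), ZNF444 (0.45 ± 0.08) and ZNF581 (0.43 ± 0.05). Under FX1 they were ZNF446 of cluster 10 (0.98 ± 0.14), ZNF524 (0.78 ± 0.14), ZNF579 (0.67 ± 0.08), ZNF846 of cluster 2 (0.65 ± 0.16) and ZNF444 (0.58 ± 0.06). ZNF446 was the one member past the 1.5-fold floor: it read 4.77, 5.52 and 4.96 CPM in GFP-low FX1, against 2.83, 2.29 and 2.52 in GFP-high FX1. That call was lost without GFP-high FX1 replicate 2, GFP-high FX1 replicate 3 or GFP-low FX1 replicate 2. ZNF446 shares exon bases with ZNF324 and, on the other strand, with SLC27A5. The call of ZNF524 under DMSO was lost without GFP-high DMSO replicate 2 (0.38). Both calls of ZNF524 were lost with the trend removed (0.19 under DMSO and 0.29 under FX1), and so was that of ZNF579 under FX1 (0.18).

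The third comparison tests whether the FX1 change differed between gates, as GFP-low minus GFP-high. Among the members 28 (15.6%) had a higher and 7 (3.91%) a lower FX1 change in GFP-low cells, beside 14.8% and 16.5% of all genes. The median difference was 0.11 on the log2 scale, beside 0.02 over all genes, and 0 members passed the 1.5-fold floor in either direction (0.37% and 0.476% of all genes did). Without GFP-high DMSO replicate 1 the first count was 17, and without GFP-high DMSO replicate 3 it was 18.

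Cluster 8 held 13 of the 28, with 0 in the other direction, and its median difference was 0.25. With the GC and length trend removed 19 of its 28 tested genes differed, all in the same direction. The share over all genes in that fit is not given here. In ZNF613 of this cluster, GFP-low FX1 read 5.23 to 6.56 CPM and GFP-low DMSO 5.65 to 6.11, which overlap, while GFP-high FX1 read 5.60 to 5.87 CPM, against 7.79 to 8.58 in GFP-high DMSO. The difference of its log2 changes was 0.52 ± 0.15 (adjusted p = 0.0046, edgeR). In ZNF439 of cluster 3, GFP-low FX1 read 7.68 to 7.87 CPM and GFP-low DMSO 7.76 to 9.99, while GFP-high FX1 read 6.71 to 6.97 CPM, against 11.3 to 11.9 in GFP-high DMSO. Its changes of -0.20 and -0.76 differed by 0.55 ± 0.13 (adjusted p = 2.46e-04, edgeR). In GFP-low cells the ranges of ZNF439 overlap, and its call there was lost without any of the GFP-high FX1 and GFP-low FX1 libraries or GFP-low DMSO replicate 1 or 2 (-0.29 to -0.11). The change there turned to 0.09 with the trend removed.

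The genes through which KRAB proteins act were read from the same fits. Of 28 corepressor genes, 27 were tested, of which 10 rose and 15 fell with FX1 in GFP-low cells and 8 rose and 13 fell in GFP-high cells, with median log2 changes of -0.10 and -0.02. These are 37.0% higher and 55.6% lower in GFP-low cells, beside 33.7% and 34.3% of all genes, and 29.6% and 48.1% in GFP-high cells, beside 33.8% and 34.6%. TRIM28, the KRAB-bound scaffold, alone passed the 1.5-fold floor, in both gates. It read 440.4, 445 and 446 CPM in GFP-low FX1, against 295, 290.1 and 277 in GFP-low DMSO, and 378, 376 and 379 in GFP-high FX1, against 237, 222 and 229 in GFP-high DMSO. The groups did not overlap, and the log2 change was 0.63 ± 0.02 in GFP-low and 0.72 ± 0.02 in GFP-high cells. With the trend removed it was 0.20 and 0.49, and the floor was passed in neither gate.

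SETDB1, the H3K9 methyltransferase of the complex, differed by 0.10 ± 0.03 in GFP-low and 0.01 ± 0.03 in GFP-high cells, the last not past the test (adjusted p = 0.85, edgeR), and with the trend removed its value in GFP-low cells turned to -0.02. That call was also lost without any GFP-high DMSO library, GFP-low DMSO replicate 3 or GFP-low FX1 replicate 1 (0.05 to 0.12). CBX5, which encodes HP1 alpha, fell by 0.39 and 0.26 on the log2 scale in GFP-low and GFP-high cells. The next 4 genes were picked from the list after their values were seen. DNMT1, the maintenance DNA methyltransferase, changed by -0.54 ± 0.01 in GFP-low and -0.59 ± 0.01 in GFP-high cells, and ATRX, a chaperone partner of histone H3.3, by -0.48 ± 0.02 and -0.48 ± 0.02. EHMT2, a writer of H3K9 dimethylation, rose by 0.58 ± 0.03 and 0.37 ± 0.03. CBX3, which encodes HP1 gamma, changed by -0.30 ± 0.02 in GFP-low cells, which the removed trend turned to 0.01, and its -0.00 ± 0.02 in GFP-high cells did not pass.

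Set beside other genes, ZNF genes on other chromosomes had 80 higher and 67 lower of 201 tested in GFP-low cells and 71 higher and 76 lower in GFP-high cells, with median log2 changes of 0.05 and -0.06. Other protein-coding genes of chromosome 19, whose median GC content was 60.0%, had 469 higher and 119 lower of 716 in GFP-low cells and 407 higher and 156 lower in GFP-high cells, with medians of 0.37 and 0.26. Of 13 zinc finger relatives on the chromosome found under other symbols, 5 were tested: 1 rose and 3 fell in GFP-low cells, and 0 rose and 3 fell in GFP-high cells. The members' medians of -0.00 and -0.14 therefore lay below those of their chromosomal neighbours, a comparison that was not tested. Median GC content was 42.1% in the tested members, 45.0% in ZNF genes on other chromosomes and 60.0% in these neighbours. The sets were not matched for GC content in these counts, and its part in the comparison was not tested.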

How the data were processed

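RNA was extracted with the RNeasy Plus Micro Kit and libraries were made with the KAPA RNA HyperPrep Kit with RiboErase, per the labels' protocols. The authors deposited 1 table of raw read counts per gene (hg38), which the submitters' processing notes tie to FastQC, STAR and featureCounts of Subread, with R 4.2.1. The strand setting and the annotation release are not given in the sources used here, so reads of overlapping genes may be shared. Of 60710 lines, 3 from a broken record were left out, and 99.6% of the other 60707 matched a symbol.

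From the deposited counts, edgeR 4.0.16 in R 4.3.3 gave TMM-scaled CPM, RPKM from the table's gene lengths, and quasi-likelihood tests (filterByExpr, robust, 1 term per group, 8 residual degrees of freedom, limma 3.58.1), with Benjamini-Hochberg adjustment over 17859 genes and a threshold of 0.05. glmTreat gave calls past 1.5-fold. DESeq2 1.42.0 was an alternative. The GC and length trend was removed per library over 17557 genes (98.3%) with the longest GENCODE transcript. Simulated counts for 17397 genes, 200 of them changed, gave back 72.4% at 1.2-fold and 97.3% at 1.5-fold for FX1 in GFP-low cells. The changed genes were drawn only from genes above a limit on mean CPM, so this recovery does not cover the lowest tested members.

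Zinc fingers and KRAB boxes were found by pattern in translated GENCODE coding sequences, with a KRAB pattern widened once after its matches were seen. Named members were the 8 largest rises and falls per FX1 contrast and 5 per other contrast, taken only from called members. Their average level had to reach 1 on the log2 CPM scale. Except for the difference between gates, the groups compared also had to lie apart. Larger called changes outside these limits were passed over, such as ZNF844 (1.53 with FX1 in GFP-high cells) and ZNF461 (1.21 in GFP-low cells). The highest members by RPKM overall and per cluster, and those next to the filter, were named as well. The members and lists were chosen with earlier results of these data known, and the 10-base word, the printed promoters, the GC split and the added check of SMARCA4 and BCL6 were chosen after values were seen. Pseudogenes by annotation (16) were left out. Replicates within a group differed by more than sampling noise. Intervals and floors cover counting error only.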

Additional observations from a re-analysis of the deposited data

Results flagged for a closer look

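The FX1 change differed between gates for 17 named members and for 4 of the corepressor genes named above by the test of the difference itself (edgeR quasi-likelihood, adjusted over all genes, threshold 0.05), given here as the GFP-low minus the GFP-high log2 change, from 3 libraries a group. Among genes that fell with FX1 in both gates, the difference was 0.39 for ZNF665, 0.46 for ZNF93 and 0.22 for ZNF160, which fell less in GFP-low cells, and -0.34 for ZNF681, -0.23 for ZNF714, -0.23 for ZNF430, -0.23 for ZNF431 and -0.21 for ZNF260, which fell more there. It was 0.55 for ZNF439, 0.52 for ZNF613 and 0.17 for ZNF808. ZNF865, which rose in both gates, had 0.34. The widest differences were 0.79 for ZNF784, 0.76 for ZNF446 and 0.63 for ZNF846, and ZNF181 had 0.41 and ZNF460 -0.10. Of the 27 corepressor genes tested, 14 passed this test, beside 31.3% of all genes. Of these 14, 6 had a higher and 8 a lower change in GFP-low cells, beside 14.8% and 16.5% of all genes. The difference was -0.10 for TRIM28, -0.13 for CBX5, -0.30 for CBX3 and 0.21 for EHMT2. The mitochondrial share also differed between gates, most in DMSO, and its part in these differences was not tested. After removal of the GC and length trend, the difference was no longer called for ZNF714 (-0.04), ZNF430 (-0.06), ZNF431 (-0.03), ZNF260 (-0.02), ZNF681 (0.0060), ZNF865 (0.09) and EHMT2 (0.04), which include the 5 given above as falling in both gates and more in GFP-low cells. Calls were also lost without 1 library, over which the difference ranged from 0.31 to 0.43 for ZNF665 (lost without GFP-high DMSO replicate 1), -0.46 to -0.30 for ZNF681 (GFP-low FX1 replicate 1), -0.27 to -0.16 for ZNF260 (GFP-high FX1 replicate 1 or 3, GFP-low FX1 replicate 1), 0.23 to 0.40 for ZNF865 (GFP-high DMSO replicate 2 or 3), 0.29 to 0.49 for ZNF181 (GFP-high DMSO replicate 1 or GFP-low DMSO replicate 2), -0.15 to -0.077 for ZNF460 (GFP-high FX1 replicate 1, GFP-low DMSO replicate 1, GFP-low FX1 replicate 1 or 2), 0.61 to 0.87 for ZNF784 (GFP-high DMSO replicate 1), 0.54 to 0.74 for ZNF846 (GFP-high DMSO replicate 1 or 2, GFP-low DMSO replicate 3, GFP-low FX1 replicate 1) and 0.08 to 0.20 for ZNF808 (any GFP-high DMSO library, GFP-low DMSO replicate 2, GFP-low FX1 replicate 1).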

How the results depend on the processing

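Among log2 changes that passed the test in at least one of the 2 fits compared, a direction turned only on removal of the GC and length trend: for 34 of 280 gene and contrast pairs tried (56 genes), 13 of them among the values given here. Values that passed in neither fit also turned sign in other settings, leaving out 1 library included, for 8 pairs, among them ZNF460, ZNF121, CBX3 and SETDB1 with FX1 in GFP-high cells and ZNF613 in GFP-low cells. With it, and with it plus the replicate block, the log2 changes became 0.086 and 0.084 for ZNF460, 0.10 and 0.10 for ZNF146, 0.181 and 0.182 for CBX3, and 0.022 and 0.023 for ZNF66 in GFP-high cells with FX1. In GFP-low cells they became 0.089 and 0.086 for ZNF439, 0.092 and 0.093 for ZNF121, 0.140 and 0.139 for ZNF146, 0.091 and 0.090 for ZNF808, 0.199 and 0.196 for ZNF66, 0.205 and 0.210 for ZNF493, -0.018 and -0.021 for SETDB1, and 0.012 and 0.012 for CBX3. The difference between gates became 0.0060 and 0.0013 for ZNF681. The same removal left 5 higher and 5 lower members past 1.5-fold with FX1 in GFP-low cells. In GFP-high cells it left 2 higher and 11 lower (10 lower with the block). Without that floor it gave 2 higher genes of cluster 4 in GFP-low and 2 lower genes of cluster 9 in GFP-high cells. Under FX1 between gates it left 21 lower members, 0 past 1.5-fold, and 8 lower and 5 higher in cluster 4. The cause was not tested.

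DESeq2 gave 5 higher and 8 lower past 1.5-fold with FX1 in GFP-low cells, 3 and 10 in GFP-high cells, and 0 higher between gates under FX1. A floor of 50 counts gave 2 higher in cluster 4 between gates under FX1. Leaving out members with exon overlap kept 72, fewer by construction: 21 higher and 23 lower (5 and 7 past 1.5-fold) with FX1 in GFP-low, 14 and 34 (2 and 7) in GFP-high, 6 and 28 between gates under DMSO, 19 and 19 (0 past 1.5-fold higher) under FX1, and 17 and 3 for the difference. In cluster 4 these were 10, 11, 8 and 9 lower in that order, in cluster 9 6 higher and 0 lower in GFP-low and 5 higher in GFP-high, and in cluster 8 6 for the difference.

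Leaving out 1 library gave, higher and lower, 52 to 58 and 53 to 67 with FX1 in GFP-low, 39 to 43 and 70 to 77 in GFP-high, 15 to 20 and 62 to 69 between gates under DMSO, 31 to 43 and 40 to 61 under FX1, and 17 to 32 and 4 to 11 for the difference. The difference had 11 lower without GFP-high DMSO replicate 2 or 3 and 4 without GFP-low FX1 replicate 1. Past 1.5-fold there were 9 to 10 and 10 to 16 in GFP-low, 4 to 6 and 15 to 20 in GFP-high, and 0 to 1 and 0 to 1 between gates under FX1. Cluster 9 had 0 to 1 lower in GFP-low cells and cluster 4 had 0 to 2 higher between gates under FX1.

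The replicate block alone moved no count past 1.5 times. After group means were taken out, libraries with the same replicate number correlated at -0.012 to 0.017. Those with different numbers correlated at -0.021 to 0.023. No pairing by number was thus seen, but correlations of single libraries near the counting noise cannot exclude a shared culture or sort. Clusters numbered 12 at a 250 kb gap and 9 at 1 Mb. At 250 kb cluster 4 parted into 8 and 20 tested genes, of which 7 and 18 fell in each gate. Cluster 9 parted into 7 tested genes, ZNF628 to ZNF581, with no KRAB pattern (6 higher and 1 lower in GFP-low, 4 and 0 in GFP-high), and 6, ZNF787 to ZNF835 (5 and 0, 4 and 0). At 1 Mb clusters 9 and 10 joined, with median log2 changes of 0.27 in GFP-low and 0.01 in GFP-high cells. Leaving out members with at least 50% shared windows, added after seeing the data, moved no such count.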

Other observations

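The word TCCAATCAGG, chosen from cluster 4 promoters, was also present in the promoters of 14 of 212 ZNF genes on other chromosomes. Of these, 11 were tested: with FX1, 10 were lower and 1 higher in GFP-low cells, and 9 lower and 1 higher in GFP-high cells, with median log2 changes of -0.70 and -0.62. With the GC and length trend removed, 8 were lower and 2 higher in GFP-low cells, and 9 and 1 in GFP-high cells. Over the 167 tested ZNF genes on other chromosomes with a promoter entry, 58 were lower and 64 higher in GFP-low cells and 64 lower and 54 higher in GFP-high cells, with medians of -0.01 and -0.07. Members outside cluster 4 that held it, 13 tested, had 7 lower and 2 higher in GFP-low cells and 8 lower and 1 higher in GFP-high cells, with medians of -0.32 and -0.40. With that trend removed they had 6 lower and 3 higher in GFP-low and 7 lower and 2 higher in GFP-high cells, with medians of -0.17 and -0.29. Of the cluster 4 genes with a promoter entry, ZNF493 was the 1 tested gene that lacked the word. It was called lower in GFP-low cells (-0.15) and not called in GFP-high cells (-0.10). Changes of genes with the word that are not ZNF genes were not read. No test was made of these counts.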
